A study of Oryza sativa with 6 samples.

Results

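The MAP kinase cascade genes of rice were followed in roots exposed to mercury (Hg). The members were the Rice Annotation Project (RAP) loci that the study's kinase list places under MAPKKK, MAPKK and MAPK, and only the loci and names were taken from it. They numbered 98, of which 74 were MAPKKK, 8 MAPKK and 16 MAPK genes, and 1 MAPKKK locus that carries the names MAPKKK36 and MAPKKK56 was counted once. The array carried probes for 92 of them among 29690 RAP loci in all. MAPKKK58, MAPKKK66, MAPKKK67, MAPKKK68, MKK10-1 and MKK10-3 had no probe. Another 7 members, MAPKKK4, MAPKKK11, MAPKKK46, MAPKKK55, MAPKKK59, MAPKKK60 and MAPKKK71, stayed under a signal of 100 in both channels of every array and were not analysed further, which left 85.

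A MAP kinase cascade passes a signal through 3 tiers of protein kinases. A MAP kinase kinase kinase (MAPKKK) phosphorylates a MAP kinase kinase (MAPKK, here MKK), which phosphorylates a MAP kinase (MAPK, here MPK) on a threonine and a tyrosine. Dual-specificity and tyrosine phosphatases remove these phosphates again. In plants the cascades are known for carrying stress, wounding and pathogen signals, and their activity is set by phosphorylation, which a transcript array does not measure. The plant MAPKKK family is large and includes many Raf-like kinases whose place in a cascade is not established. Gene names are those of the study's list, whose MPK numbers differ from common usage: its MPK6 (Os03g0285800) is described there as MAP kinase 1 or MAPK5a, and its MPK3 (Os06g0154500) as MAP kinase 6.

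Each of 6 Agilent arrays carried the Cy5-labeled RNA of Hg-treated roots together with the Cy3-labeled RNA of roots kept in water, the control. The seedlings were of cultivar TN-67 and 6 days old, and per the study's methods the RNA came from root tips. Short-term exposure, for which RNA of 1 h and 3 h was pooled, had 3 arrays, and long-term exposure of 24 h the other 3. The dose was 25 µM by the study's methods, while the sample labels write 25 mM. The labels call the arrays of an exposure biological replicates without naming separate cultures, so p-values measure the spread between these arrays only. Each gene is given as the log2 ratio of Hg over control of its brightest probe, and signals are processed intensities in arbitrary units.

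The dyes were not swapped, and any preference of a probe for one dye is therefore contained in all 6 of its ratios. The long-term arrays all lay on 1 slide and the short-term arrays on the other 2, so slide and exposure time cannot be told apart in the differences between exposures. The long-term arrays were also brighter, with median signals of 336 to 410 in the Hg channel and 336 to 405 in the control channel, against 207 to 309 and 202 to 301 on the short-term arrays. Root aquaporin probes (OsNIP2;1, OsPIP2;3 and OsPIP2;5) were well above background on all 6 arrays in both channels. Of the markers of green tissue, a Rubisco small subunit probe was well above background on 5 of 6 arrays in both channels, and a chlorophyll a/b-binding protein probe on 5 of 6 in the Hg channel and 0 of 6 in the control channel. The chlorophyll a/b-binding protein locus stayed under a signal of 100 in both channels of every array, so no ratio was fitted for it. Fewer cells of a type and less RNA per cell cannot be told apart in such whole-tissue RNA.

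At short-term exposure most cascade genes tested (64 of 84) were not called, and of those called more were up than down. At 24 h fewer were called. A gene was called where limma gave an adjusted p under 0.05 (Benjamini-Hochberg over all genes tested) and the mean change was at least 2-fold. At short-term exposure 16 of 84 members tested were upregulated (19.0%), against 11.6% of all genes tested, and 4 were downregulated (4.76%), against 8.09% of all genes. At long-term exposure 4 of 85 rose (4.71%) and 2 fell (2.35%), against 8.99% and 6.03% of all genes. The difference between exposures, long minus short, was called positive for 6 of 84 members (7.14%) and negative for 11 (13.1%), against 9.23% and 10.1% of all genes.

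**Figure D1:**
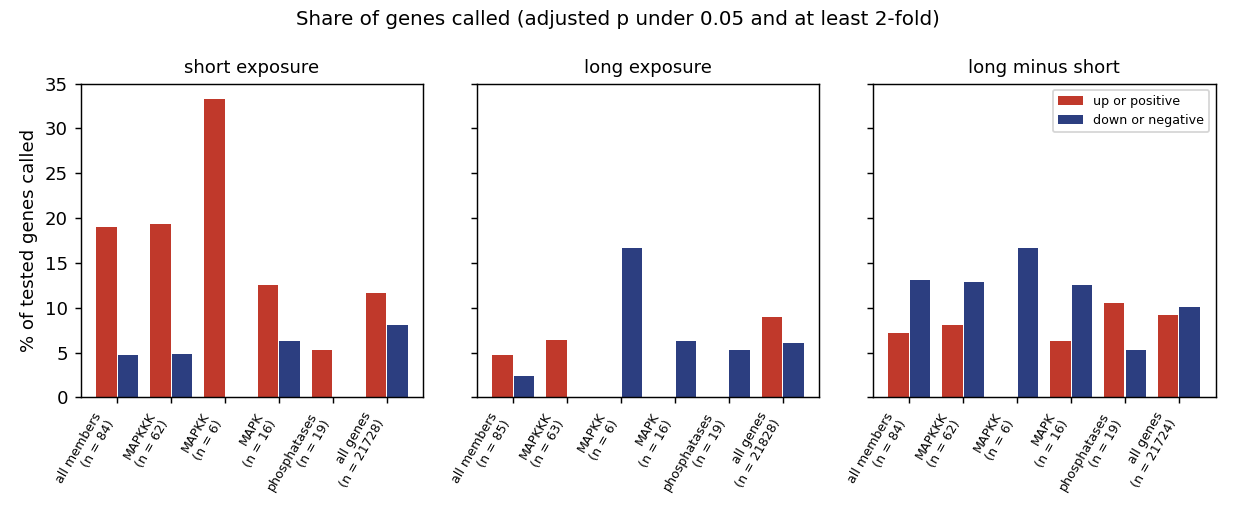
Share of tested genes (%) called at short-term exposure, at long-term exposure and in the difference between them, for all members, each tier, the phosphatase list and all genes; red bars are up or positive, blue bars down or negative, and n is the number tested. At short-term exposure 19.0% of members were up against 11.6% of all genes, and at long-term exposure 4.71% against 8.99%.

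The median log2 ratio of the members tested was 0.09 at short-term exposure, against -0.13 over all genes tested, and -0.02 at 24 h, against -0.06 over all genes. Of the 85 members kept, 78 reached the signal minimum in both channels at both exposures, and 3 did so in only 1 of these 4 groups: MAPKKK57 in the Hg channel at short-term, MAPKKK45 in the Hg channel at long-term and MAPKKK44 in the control channel at long-term exposure. These could pass only through the group in which they were bright, and the calls of MAPKKK57 and MAPKKK45 are included in the counts above. Another way of background correction (normexp, then loess) gave 13 members up and 0 down at short-term exposure, so that 100% of the called members were up in place of 80.0%. Of all genes called, 82.6% were then up in place of 58.9%, so the shift was not particular to the members. By the methods' t-test, with the same thresholds, 6 members were up and 1 was down, while 918 of all 21728 genes tested were up and 495 down.

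Among the MAPKKK genes, 12 of 62 tested rose (19.4%) and 3 fell (4.84%) at short-term exposure, against 11.6% and 8.09% of all genes. At 24 h limma called 4 of 63 up (6.35%) and 0 down, against 8.99% and 6.03% of all genes. At an adjusted p under 0.05 without a fold threshold 18 were above 0 and 18 below. Over all 21828 genes tested at 24 h, 6240 were above 0 and 7701 below by that rule. Several of the upregulated genes lie next to each other in locus number. Chromosome 1 carries the run MAPKKK63 (Os01g0699100), MAPKKK55 (Os01g0699400), MAPKKK70 (Os01g0699500) and MAPKKK62 (Os01g0699600), and chromosome 5 the pair MAPKKK57 (Os05g0545300) and MAPKKK69 (Os05g0545400). All are listed only as proteins with a protein kinase domain. All of them except MAPKKK55, which was under the signal minimum, rose at short-term exposure. Neighbours of this kind can share sequence, and whether a probe also binds the transcript of its neighbour was not tested, so their values may not be independent. Of the 12 upregulated MAPKKK genes, 5 were on chromosome 1, where 9 were tested, and 2 on chromosome 5, where 5 were tested.

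MAPKKK62 had signals of 1152, 2522 and 1982 in Hg-treated roots and 90.7, 183 and 98.9 in control roots at short-term exposure. Its Hg signals were thus all above its control signals, by 15.2-fold on average (log2 ratio 3.93 ± 0.33, SE, n = 3; adjusted p = 0.00014). At 24 h its signals were 292, 458 and 377 in Hg-treated roots and 436, 192 and 357 in control roots, which overlap (log2 ratio 0.25 ± 0.33; adjusted p = 0.52). The ratios of the 3 long-term arrays ran from -0.58 to 1.26, a wider spread than at short-term exposure, where they ran from 3.67 to 4.32.

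MAPKKK70 behaved alike, with signals of 1629, 2019 and 1887 in Hg-treated roots and 176, 209.6 and 181 in control roots at short-term exposure. This is a 9.75-fold difference (log2 ratio 3.29 ± 0.17, SE, n = 3; adjusted p = 4e-05). At 24 h the signals were 255, 316 and 329 in Hg-treated roots, against 418, 269 and 411 in control roots, and the groups overlapped (log2 ratio -0.27 ± 0.17; adjusted p = 0.2). The control signals of both genes were higher on the long-term arrays, which were brighter in general. Divided by the median control signal of their array, the control signals of MAPKKK62 were 0.412, 0.607 and 0.490 on the short-term arrays, against 1.30, 0.474 and 0.962 at 24 h, so that the second long-term array lay within the short-term range. Those of MAPKKK70 were 0.799, 0.695 and 0.898 on the short-term arrays, against 1.24, 0.664 and 1.11 at 24 h, with the second long-term array below the short-term range.

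MAPKKK63, the first of the run, rose less and did not go back fully. Its signals at short-term exposure were 332, 493 and 649.6 in Hg-treated roots and 127, 197 and 139 in control roots, with no overlap (3.13-fold; adjusted p = 0.00048). At 24 h they were 329, 373 and 378 in Hg-treated roots and 219, 174 and 220.1 in control roots. These did not overlap either, but the 1.77-fold mean was under the fold threshold (adjusted p = 0.0095).

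MAPKKK57 was dim. Its short-term signals were 60.5, 128 and 133 in Hg-treated roots and 15.0, 20.1 and 10.02 in control roots, and the control signal was well above background on 0 of 3 arrays. With the control signal set to the lowest signal well above background on each array, the gene was 3.66-fold higher in Hg-treated roots. This value was taken after loess and quantile scaling of the channels and depends on that processing (adjusted p = 0.00059 by limma for the fitted ratio). Its 24 h signals were 42.6, 41.4 and 33.8 in Hg-treated roots and 58.3, 24.7 and 29.8 in control roots, which overlap. Its neighbour MAPKKK69 had 74.4, 188 and 138 in Hg-treated roots and 22.0, 62.2 and 31.2 in control roots at short-term exposure, with the control signal well above background on 1 of 3 arrays (3.56-fold as fitted; adjusted p = 0.00014). Under normexp correction with loess the log2 ratio of MAPKKK69 was 0.69 in place of 1.83, under the fold threshold, and that of MAPKKK57 was 1.101. At 24 h MAPKKK69 had 84.8, 104 and 86.0 in Hg-treated roots and 96.1, 85.3 and 109 in control roots, again with overlap.

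**Figure D2:**
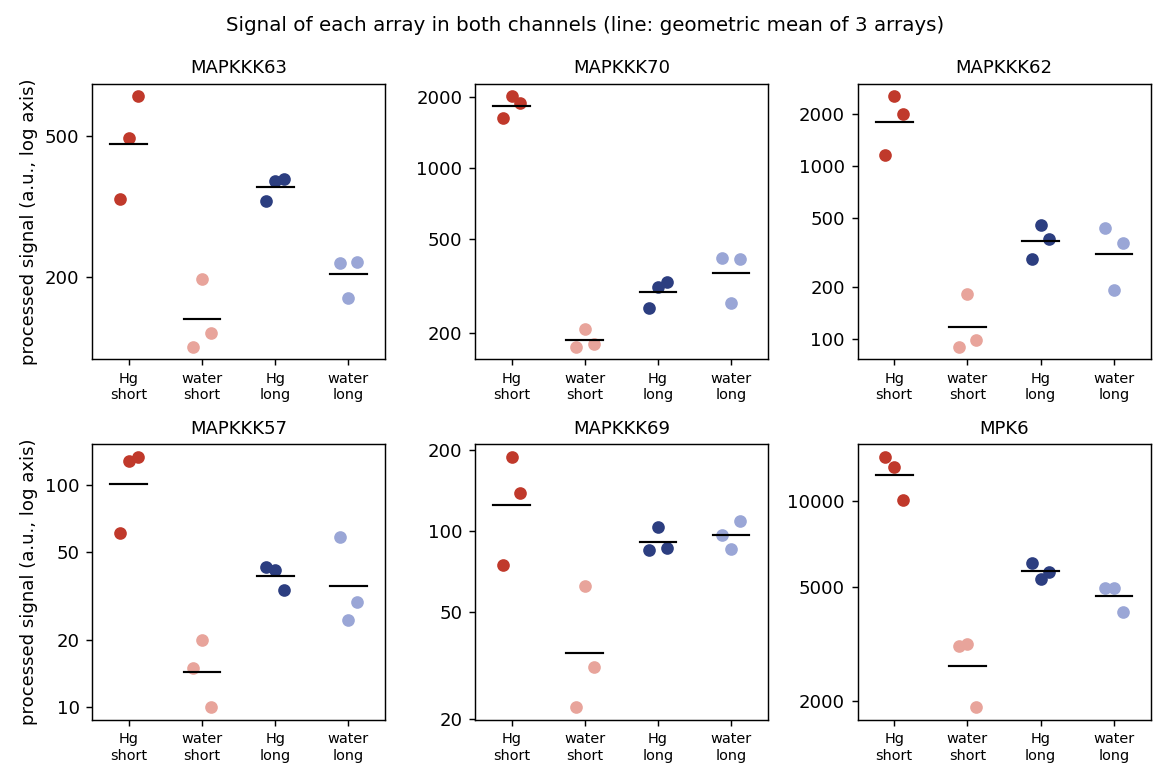
Processed signal (arbitrary units, log axis) of 5 neighbouring MAPKKK genes and of MPK6 on each array, with Hg-treated roots left of water-treated roots at each exposure; the line is the geometric mean of 3 arrays. At short-term exposure the Hg signals lie above the control signals for all 6 genes, as for MAPKKK70 with 1629 to 2019 against 176 to 209.6, while at long-term exposure MAPKKK70, MAPKKK62, MAPKKK57 and MAPKKK69 overlap.

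A further 7 MAPKKK genes rose at short-term exposure. MAPKKK51 (Os01g0747400) had signals of 1384, 2129 and 1597 in Hg-treated roots and 426, 688 and 308 in control roots, with no overlap (3.74-fold; log2 ratio 1.90 ± 0.17, SE, n = 3; adjusted p = 0.00017). Its 24 h signals were 703, 702 and 616 in Hg-treated roots and 705, 979.7 and 798 in control roots. MAPKKK64 (Os07g0584100), described as MAP kinase-like, was 3.03-fold higher in Hg-treated roots, and all of its 3 probes were called up at short-term exposure and none at 24 h.

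The other 5 lay close to the 2-fold threshold. MAPKKK19 had a log2 ratio of 1.17 ± 0.12, MAPKKK73 of 1.103 ± 0.13, MAPKKK17, an ACT domain kinase, of 1.07 ± 0.11, MAPKKK16 of 1.06 ± 0.08 and MAPKKK61 of 1.01 ± 0.14. MAPKKK61, the lowest of the called genes, had signals of 283, 285 and 214 in Hg-treated roots and 104, 160.2 and 126 in control roots, which do not overlap (adjusted p = 0.00091). Its ratio was also 0.85 ± 0.14 at 24 h, under the fold threshold. Without the first short-term array MAPKKK17 was at 0.95, MAPKKK61 at 0.80 and MAPKKK73 at 0.97, and without the second MAPKKK16 was at 0.98, all under the threshold.

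MAPKKK genes that fell at short-term exposure were few, and 2 of the 3 were dim. MAPKKK74 (Os01g0892800) had signals of 7.62, 23.1 and 10.2 in Hg-treated roots and 42.2, 79.1 and 33.9 in control roots (log2 ratio -1.99 ± 0.15, SE, n = 3; adjusted p = 0.00012). These signals were well above background on 1 of 3 arrays in the Hg channel and on 2 of 3 in the control channel. At 24 h the same probe gave 117, 101 and 86.3 in Hg-treated roots and 132, 103 and 77.8 in control roots, with overlap. MAPKKK54 (Os03g0401100), described by its PB1 (octicosapeptide) domain, had 56.0, 109 and 79.7 in Hg-treated roots and 142, 337 and 271 in control roots at short-term exposure, with no overlap (log2 ratio -1.58 ± 0.12; adjusted p = 0.00012).

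At 24 h MAPKKK54 had 1045, 1183 and 1188 in Hg-treated roots, against 781, 747 and 623 in control roots, so both channels were brighter than at short-term exposure. Its log2 ratio of 0.67 ± 0.12 was then above 0 on all 3 arrays and under the fold threshold. MAPKKK15 (Os08g0421800), described as related to NPK1, a kinase of cell division in tobacco, had signals of 1434, 1955 and 1186 in Hg-treated roots and 3518, 4169.7 and 2068 in control roots at short-term exposure, with no overlap (log2 ratio -1.06 ± 0.12; adjusted p = 0.00041). Its ratio was -0.95 without the first short-term array and -0.93 after a further loess step, both under the threshold, and under normexp correction with loess MAPKKK74, MAPKKK54 and MAPKKK15 were at -0.57, -0.92 and -0.88, so that none of the 3 passed it.

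By their descriptions, 4 of the tested MAPKKK genes are related to EDR1, a Raf-like kinase that restrains defence in Arabidopsis, and 7 to the MAP3K, YDA and NPK1 type. At short-term exposure limma called 0 of 4 EDR1-related genes up and 0 down (1 above and 2 below 0 had an adjusted p under 0.05), and of the 7 of the other type 0 were up and 1, MAPKKK15, was down. Of the 8 genes described as MAP kinase or MAP kinase-like, 2 were up and 0 down, and of the 33 tested genes with another kinase description 9 were up and 1 down. Over all genes 11.6% were up and 8.09% down. At an adjusted p under 0.05 without a fold threshold, 6019 of all 21728 genes tested were above 0 and 8908 below. At 24 h the EDR1-related and MAP3K, YDA and NPK1 type genes had 0 calls in either direction, against 8.99% up and 6.03% down over all genes. Of the EDR1-related genes 3 above 0, and of the other type 1 above and 3 below 0, had an adjusted p under 0.05. By that rule 6240 of all 21828 genes tested at 24 h were above 0 and 7701 below. The descriptions are short, and the groups are too small to be compared.

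At long-term exposure the MAPKKK genes that rose were MAPKKK45, MAPKKK53, MAPKKK50 and MAPKKK73. MAPKKK45 (Os06g0636600) had signals of 109.6, 167 and 133 in Hg-treated roots and 54.6, 43.9 and 33.2 in control roots (3.13-fold; log2 ratio 1.65 ± 0.26, SE, n = 3; adjusted p = 0.0021). The groups did not overlap. MAPKKK45 reached the signal minimum only in the Hg channel at 24 h, so it could pass that filter only through the group where it was high. Under normexp correction with loess the log2 ratio was 0.69, under the fold threshold, and by the methods' t-test the adjusted p was 0.074. At short-term exposure its signals were 39.8, 47.0 and 28.3 in Hg-treated roots and 30.0, 34.9 and 41.5 in control roots, with overlap.

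MAPKKK53 (Os11g0114600) and MAPKKK50 (Os12g0114100) have nearly the same locus numbers on chromosomes 11 and 12, whose ends are known to be duplicated in rice, so their probes may report both. MAPKKK53 had 2483, 3497 and 2870.1 in Hg-treated roots and 1622, 1237 and 1131 in control roots at 24 h (2.22-fold; adjusted p = 0.0038). MAPKKK50 had 2449, 3061 and 2614 in Hg-treated roots and 1683, 1210.0 and 1048 in control roots (2.09-fold; adjusted p = 0.0046). In both genes the first array had the lowest ratio, at 0.61 for MAPKKK53 and 0.54 for MAPKKK50, against 1.32 or more on the other arrays. At short-term exposure their log2 ratios were -0.06 ± 0.21 and 0.46 ± 0.21.

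MAPKKK73 (Os03g0292700) rose at both exposures. At 24 h it had 920.2, 1237 and 951 in Hg-treated roots and 418, 545 and 546 in control roots, a 2.06-fold difference without overlap (adjusted p = 0.00076). At short-term exposure it had 3210.1, 3099 and 1612 in Hg-treated roots and 1249.7, 1412 and 917 in control roots (2.15-fold; adjusted p = 0.00044). Without the second long-term array only 1 member was upregulated at 24 h, since MAPKKK50, MAPKKK53 and MAPKKK73 were then at 0.93, 0.98 and 0.97, and without the first MAPKKK73 was at 0.99 and without the third MAPKKK50 at 0.94. By the methods' t-test 1 member was up.

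**Figure D3:**
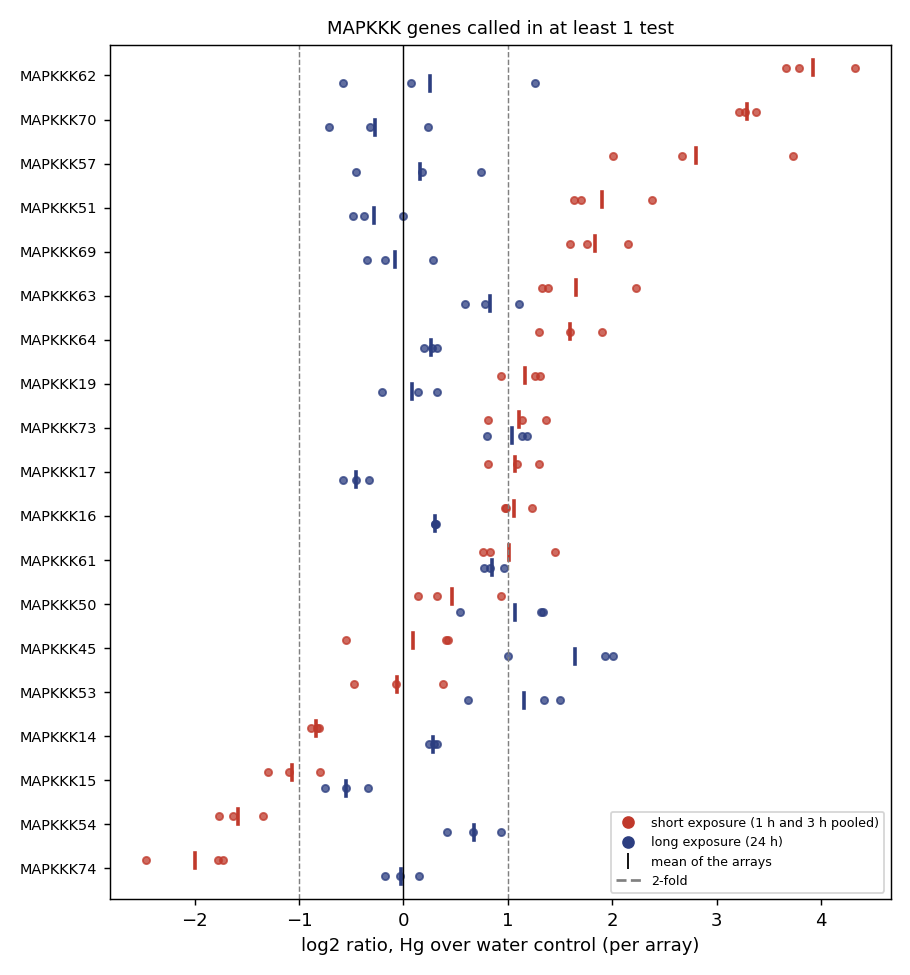
Log2 ratio of Hg over control (x axis) on each array for the MAPKKK genes called in at least 1 test (rows), at short-term exposure in red and long-term exposure in blue, with the mean of the arrays as a bar and dashed lines at 2-fold. MAPKKK62 and MAPKKK70 exceed 3 on every short-term array, while their long-term ratios run from -0.71 to 1.26.

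Of the 8 MAPKK genes, 6 were measured and they went in different directions. MKK10-2 and MKK4 rose at short-term exposure and MKK5 fell at long-term exposure. MKK10-2 (Os03g0225100) had signals of 1272, 1611 and 917 in Hg-treated roots and 429, 488 and 283 in control roots at short-term exposure, with no overlap (3.17-fold; log2 ratio 1.66 ± 0.12, SE, n = 3; adjusted p = 8.5e-05). Both of its probes were called. Its 24 h signals were 962, 1283 and 1082 in Hg-treated roots and 714, 637 and 717 in control roots, with a log2 ratio of 0.68 ± 0.12 that was under the fold threshold.

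MKK4 (Os02g0787300), which acts in chitin-triggered defence signaling in rice, had signals of 309.8, 365 and 291 in Hg-treated roots and 182, 201 and 82.2 in control roots at short-term exposure (2.22-fold; adjusted p = 0.0025). The groups did not overlap, but the third array, at a log2 ratio of 1.82, stood above the others at 0.77 and 0.86. Without it the ratio was 0.82, under the threshold, and against a 1.5-fold change (limma treat) the adjusted p was 0.064. At 24 h MKK4 had 168, 159 and 155 in Hg-treated roots and 219, 244 and 224 in control roots, and its log2 ratio of -0.51 ± 0.20 did not pass the test (adjusted p = 0.061).

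MKK5 (Os06g0191300) had 749, 838 and 755 in Hg-treated roots and 1409, 1972 and 1650.2 in control roots at 24 h (log2 ratio -1.09 ± 0.09, SE, n = 3; adjusted p = 0.00022). All of its 3 probes were called down, and under normexp correction with loess the ratio was -0.92, under the fold threshold. At short-term exposure it had 661, 1044 and 597 in Hg-treated roots and 1065, 1466 and 893 in control roots, and the log2 ratio of -0.59 ± 0.09 was under the fold threshold.

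The other 3 MAPKK genes had no call. MKK6 (Os01g0510100) had log2 ratios of 0.89 at short-term exposure, over the 2 arrays that remained after outlier spots were left out, and 0.45 at 24 h. MKK1 (Os06g0147800) was at 0.46 and 0.08, and MKK3 (Os06g0473200), a homolog of the tobacco kinase NPK2, at -0.21, likewise over 2 arrays, and -0.26. The adjusted p was 0.00086 for MKK6 and 0.0013 for MKK1 at short-term exposure, so what kept them from a call was the size of the change.

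All 16 MAPK genes were measured and 3 of them were called at short-term exposure. Of the 16, 2 were up (12.5%) and 1 was down (6.25%), against 11.6% and 8.09% of all genes. MPK6 (Os03g0285800), described as MAPK5a, a kinase of defence and stress signaling in rice, rose most. Its signals were 14294, 13146 and 10130.0 in Hg-treated roots and 3111, 3150.0 and 1895 in control roots (4.68-fold; log2 ratio 2.23 ± 0.10, SE, n = 3; adjusted p = 3.5e-05). The lowest Hg signal was above the highest control signal, and each of its 8 probes was called up, with log2 ratios of 2.23 to 2.47.

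At 24 h MPK6 had 6078, 5337 and 5633 in Hg-treated roots and 4963, 4975 and 4098 in control roots. The groups still did not overlap, but the log2 ratio was 0.28 ± 0.10 (adjusted p = 0.044), and 0 of the 8 probes were called. Divided by the median signal of the channel on each array, the Hg signals of MPK6 reached 63.1, 42.5 and 48.9 on the short-term arrays, and 18.1, 13.0 and 15.0 at 24 h. Its control signals on that scale were 14.1, 10.45 and 9.39 on the short-term arrays and 14.8, 12.3 and 11.03 at 24 h, which overlap.

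MPK13 (Os02g0135200), described as induced by blast and wounding, had signals of 511, 500.2 and 362 in Hg-treated roots and 149, 178 and 139.7 in control roots at short-term exposure (2.92-fold; adjusted p = 6.4e-05). All of its 3 probes were called up. Its signals at 24 h were 522, 546 and 495 in Hg-treated roots and 286, 317 and 312 in control roots, a 1.71-fold difference without overlap that was under the fold threshold. MPK12 (Os05g0576800), described as a MAP kinase homolog, fell at both exposures. It had 393, 548 and 253 in Hg-treated roots and 1088, 1158 and 546 in control roots at short-term exposure, with the highest Hg signal just above the lowest control signal (log2 ratio -1.22 ± 0.11; adjusted p = 0.0002), and each array's own ratio was between -1.47 and -1.08.

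At 24 h MPK12 had 359, 421 and 357 in Hg-treated roots, against 964, 1305 and 1269 in control roots (log2 ratio -1.63 ± 0.11; adjusted p = 0.00016). It was the only MAPK gene called at 24 h (6.25% down, against 6.03% of all genes). Under normexp correction its short-term ratio was -0.96, under the threshold.

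The 13 MAPK genes with no call at either exposure spread on both sides of 0. At short-term exposure MPK5 was at a log2 ratio of 0.94, MPK16 at 0.83 over 2 arrays, MPK1 at 0.49, MPK8 at 0.42, MPK7 at 0.30, MPK2 at 0.28 and MPK4 at 0.10. On the other side MPK3 was at -0.16, MPK14 at -0.27, MPK9 at -0.36, MPK10 at -0.64, MPK15 at -0.76 and MPK11 at -0.90. MPK4 had the largest spread, with -0.60, 0.25 and 0.64 on its 3 short-term arrays. Of the genes described as induced by blast and wounding (MPK1, MPK4, MPK8, MPK9, MPK11 and MPK13), MPK13 was called up at short-term exposure and none was called at 24 h.

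The probes of MPK5 disagreed. It was represented by its brightest probe, and of its 4 probes 1 was called up at short-term exposure, with log2 ratios running from 0.38 to 1.49. Among the 38 members with several probes, the call depended on the probe for 4 at short-term exposure and for 1 at 24 h, and 0 had probes called up and down. The 4 were MAPKKK18, MAPKKK30, MAPKKK75 and MPK5, whose brightest probes were not called, and the 1 was MAPKKK53, called by 2 of 3 probes. In the difference between exposures more calls depended on the probe. MPK8 was called by 3 of 4 probes and MAPKKK53 by 1 of 3, in both with the brightest among them. Probes other than the brightest were called for MPK1 and MPK13 (1 of 3 each), MAPKKK37 and MAPKKK75 (1 of 2 each) and MAPKKK38 and MPK5 (1 of 4 each).

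At 24 h MPK13, MPK2 and MPK15 had the highest log2 ratios among the MAPK genes, at 0.77, 0.67 and 0.68, and MPK12, MPK10 and MPK11 the lowest, at -1.63, -0.91 and -0.83. MPK7 was at -0.68, MPK8 at -0.58, MPK1 at -0.31, MPK9 at -0.29, MPK3 at -0.20 and MPK16 at -0.07. MPK14, MPK4, MPK6 and MPK5 were at 0.05, 0.02, 0.28 and 0.52.

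**Figure D4:**
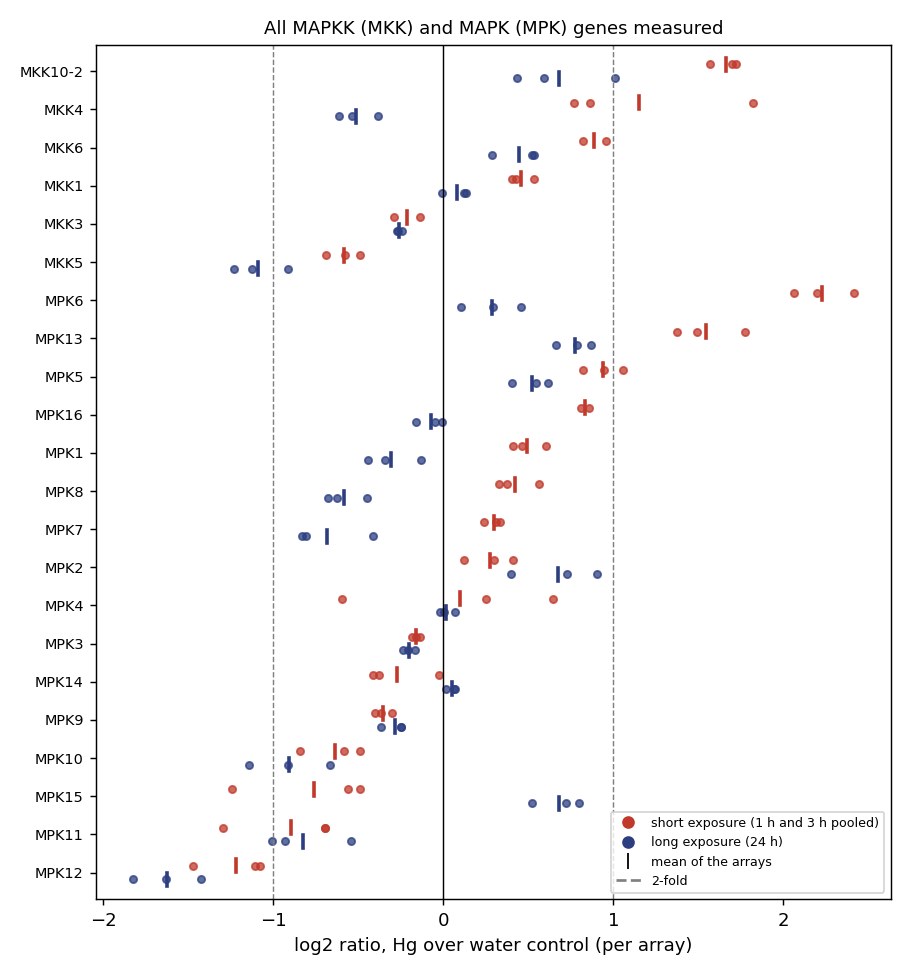
Log2 ratio of Hg over control (x axis) on each array for the 6 MAPKK (MKK) and 16 MAPK (MPK) genes measured (rows), at short-term exposure in red and long-term exposure in blue, with the mean of the arrays as a bar and dashed lines at 2-fold. The ratios of MPK6 run from 2.06 to 2.42 at short-term exposure and from 0.10 to 0.46 at 24 h, and MPK12 is below -1 on all 6 arrays.

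The difference between exposures was tested directly, as the long-term minus the short-term log2 ratio. It was called negative for MAPKKK62 (-3.67 ± 0.46, SE), MAPKKK70 (-3.55 ± 0.23), MAPKKK57, MAPKKK51 (-2.19 ± 0.23), MAPKKK69 (-1.91 ± 0.21), MAPKKK17 (-1.52 ± 0.15), MAPKKK64 (-1.33 ± 0.16), MAPKKK19 (-1.08 ± 0.17), MKK4 (-1.66 ± 0.28), MPK6 (-1.94 ± 0.14) and MPK8 (-1.004 ± 0.11). Adjusted p ran from 0.0003 for MAPKKK70 to 0.0054 for MAPKKK57, whose fitted value is no measured size because its short-term control signal was well above background on 0 of 3 arrays. All of these except MPK8 had been called up at short-term exposure. By their brightest probes, the upregulated genes without a called difference were MAPKKK16, MAPKKK61, MAPKKK63, MAPKKK73, MKK10-2 and MPK13, with differences of -0.76, -0.16, -0.82, -0.06, -0.98 and -0.77. Another probe of MPK13 had a called difference, at -1.15.

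MPK8 (Os01g0629900) turned from one side of 0 to the other without a call at either exposure. Its signals were 3174, 3807 and 2078 in Hg-treated roots and 2530.1, 2936 and 1409 in control roots at short-term exposure, with log2 ratios of 0.33, 0.38 and 0.56. At 24 h they were 2539, 2501 and 2490.3 in Hg-treated roots, against 3464, 3854 and 3986 in control roots, with log2 ratios of -0.45, -0.62 and -0.68. Its difference was at -0.94 with each array centred on its median, -0.94 after normexp correction and loess, -0.93 without the third short-term array and -0.98 and -0.96 without the second and the third long-term array, all under the 2-fold threshold.

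The difference was called positive for MAPKKK54 (2.25 ± 0.17, SE), MAPKKK74 (1.97 ± 0.22), MAPKKK45 (1.55 ± 0.37), MPK15 (1.44 ± 0.22), MAPKKK53 (1.21 ± 0.30) and MAPKKK14 (1.12 ± 0.09). MAPKKK14 (Os04g0610900), an EDR1-related kinase, had 1909, 2108 and 1308 in Hg-treated roots and 3376, 3680.1 and 2415 in control roots at short-term exposure. At 24 h it had 4797, 6292 and 5963 in Hg-treated roots, against 3906, 5041 and 5038 in control roots. Its log2 ratios were thus below 0 on all short-term arrays (-0.84 ± 0.06) and above 0 on all long-term arrays (0.29 ± 0.06).

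MPK15 (Os01g0643800) had 33.8, 88.4 and 59.5 in Hg-treated roots and 79.8, 124 and 87.7 in control roots at short-term exposure, with the Hg signal well above background on 2 of 3 arrays. At 24 h it had 172, 255 and 188 in Hg-treated roots, against 98.7, 154 and 131 in control roots, and the ratios of the exposures did not overlap. The difference of MAPKKK53 was the least stable: it was 0.94 as the mean of its 3 probes, and its adjusted p was 0.055 without the second and 0.053 without the third long-term array, and without the third short-term array its size was just under 2-fold. That of MAPKKK19 was -0.93 without the second long-term array. Under normexp correction with loess the differences of MAPKKK19 (-0.90), MAPKKK57 (-0.99), MAPKKK69 (-0.75), MAPKKK45 (0.73), MAPKKK74 (0.57) and MPK15 (0.69) were under the 2-fold threshold. All of these but MAPKKK19 had a signal not well above background on at least 1 array.

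Phosphatases of the kinds that can act on MAP kinases, picked by their descriptions, were described by the same calls. Whether these members act on MAP kinases was not tested. The study's list holds 20 loci described as dual-specificity or tyrosine phosphatases, of which 19 were tested. At short-term exposure limma called 1 up (5.26%, against 11.6% of all genes) and 0 down (against 8.09%), and at an adjusted p under 0.05 without a fold threshold 2 were above 0 and 7 below. By that rule 6019 of all 21728 genes tested were above 0 and 8908 below. At 24 h 0 were up (against 8.99% of all genes) and 1 was down (5.26%, against 6.03%). Without a fold threshold 6 were then above 0 and 7 below, against 6240 and 7701 of all 21828 genes tested. The difference was positive for 2 (10.5%, against 9.23% of all genes) and negative for 1 (5.26%, against 10.1%). Without the third long-term array the 5 calls over these tests became 3. OsPP105 (Os09g0135700), a putative tyrosine phosphatase, had signals of 3178, 3033 and 1613 in Hg-treated roots and 1028, 1130.2 and 743 in control roots at short-term exposure, with no overlap (2.62-fold; adjusted p = 0.00016). The 24 h signals were 743, 915 and 943 in Hg-treated roots and 686, 668 and 681 in control roots (1.27-fold; adjusted p = 0.041).

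OsPP126 (Os12g0152800) had 298, 353 and 346 in Hg-treated roots and 452, 750.1 and 932 in control roots at 24 h (log2 ratio -1.04 ± 0.18; adjusted p = 0.0027). OsPP39 (Os02g0771400) was below 0 on all short-term arrays, at -0.92, -1.27 and -0.75, and above 0 on all long-term arrays, at 0.24, 0.66 and 0.66, and its difference of 1.499 ± 0.18 was called. The difference of OsPP77 (Os05g0524200) was 1.01 ± 0.19. The median log2 ratio of the 19 phosphatase genes was -0.16 at short-term exposure and -0.12 at 24 h, against -0.13 and -0.06 over all genes tested.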

How the data were processed

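The authors deposited 6 scanner files, 1 per array, and a value table of the series. The deposited intensity values are the signals of each spot in both channels, which Agilent Feature Extraction (version 10.7.1.1) had corrected for background and spatial trend and normalized between the dyes within the array, per the file headers. Its log10 ratio of Cy5 over Cy3, also in the deposited files, was used as an alternative after multiplication by 3.32. The log2 values of the deposited table lay within 0.01 of the log2 ratios computed here from each array's scanner file for at least 99.98% of probes, with medians of -0.15 to 0.0048, and were used as an alternative. Their scale and direction were found in this way. How that table was made is not given in the sources used here.

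Hg-treated RNA was Cy5 and control RNA Cy3 on every array, and whether both exposures used the same control RNA is not stated. Control spots and outlier spots (72 to 1185 per array) were left out, spots of a probe averaged and probes under a signal of 100 in both channels of all arrays excluded after the study's methods, which left 31325 of 41908 probes that name a RAP locus and 21843 genes. Each gene was represented by its brightest probe. Where outlier spots left fewer than 2 arrays in an exposure the gene was not tested there, which held for MAPKKK40 at short-term exposure. R (4.3.3) with limma (3.58.1) fitted 1 coefficient per exposure to all 6 arrays (4 residual degrees of freedom), and Benjamini-Hochberg adjustment ran over all genes tested. Precision is limited by having 3 arrays per exposure. The fit was tested on simulated data.

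The members, the phosphatase list, the rule for named genes and the tests were chosen with earlier results of these data known. All MAPKK and MAPK genes are named, MAPKKK genes where called in at least 1 test, and array values are given for the 5 highest and the 5 lowest called members of each exposure and for members called only in the difference, with further called members added after their values were seen. Loci and names are those of the array design and the study's list. Columns with the study's own fold changes were not used. The alternatives concerned the source of the values, background, normalization, filter, outlier and saturated spots, the probe of a gene, the test, the fold threshold, the variance prior, the slide as a random block, the replicate number as a block, and leaving out each array. Normexp (offset 50) was run on median spot signals.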

Additional observations from a re-analysis of the deposited data

Results flagged for a closer look

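The response to Hg differed between the exposures, by limma's test of the difference itself (adjusted p under 0.05 and at least 2-fold), for 17 of 84 members tested. The 17 include MAPKKK57 and MAPKKK45, which could pass the signal filter only through the group where they were high. Positive differences made up 7.14% and negative ones 13.1% of the members, against 9.23% and 10.1% of all genes. The long-minus-short log2 difference was negative for MAPKKK62 (-3.67), MAPKKK70 (-3.55), MAPKKK51 (-2.19), MPK6 (-1.94), MAPKKK69 (-1.91), MKK4 (-1.66), MAPKKK17 (-1.52), MAPKKK64 (-1.33), MAPKKK19 (-1.08) and MPK8 (-1.004). MAPKKK57 also passed, but its fitted value of -2.65, which was -0.99 under normexp correction with loess, is no measured size because its short-term control signal was well above background on 0 of 3 arrays. The difference was positive for MAPKKK54 (2.25), MAPKKK74 (1.97), MAPKKK45 (1.55), MPK15 (1.44), MAPKKK53 (1.21) and MAPKKK14 (1.12). Under normexp correction with loess MAPKKK74, MAPKKK45 and MPK15 were at 0.57, 0.73 and 0.69, all under the 2-fold threshold. So were MAPKKK69, MAPKKK19 and MPK8, at -0.75, -0.90 and -0.94. MAPKKK53 lost its call in 7 of 22 alternatives and array omissions. All long-term arrays were on 1 slide, so slide and exposure cannot be told apart here. Exposures of 3 arrays are too small for a test of single outlying arrays.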

How the results depend on the processing

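None of the 43 called values of single members changed sign under the alternatives run or when an array was left out, and 15 kept their call throughout. There were 17 alternatives, of which fitting each exposure on its own gave 26 of these values and none of the differences. Counts are given as up and down at short-term exposure, up and down at long-term exposure, and positive and negative in the difference, against 16, 4, 4, 2, 6 and 11. Normexp with loess gave 13, 0, 3, 1, 3 and 7, the methods' t-test gave 6, 1, 1, 2, 4 and 11, and with no fold threshold they were 36, 25, 25, 28, 15 and 31. Over all genes tested, the main counts in the same order were 2520, 1758, 1963, 1316, 2005 and 2201. Normexp with loess gave 2077, 439, 1402, 532, 1138 and 1708 of all genes, and the t-test 918, 495, 912, 810, 1717 and 1967. With no fold threshold they were 6019, 8908, 6240, 7701, 5698 and 5196. Against a 1.5-fold change (limma treat) 2 members were up at long-term exposure, and 1722 of all genes. Of the phosphatases, 5 calls over the 3 tests became 3 under normexp and loess, array centring, a further loess step, the methods' t-test and treat, and 32 with no fold threshold, in alternatives chosen after seeing the data. The cause was not tested. Leaving out 1 array gave 13 to 16 up and 3 to 5 down at short-term exposure, 1 to 4 up and 2 to 3 down at long-term exposure, 5 to 6 positive and 10 to 13 negative differences, and 3 to 5 phosphatase calls. Normexp with loess moved the median of all genes by 0.145 at short-term exposure and a further loess step by 0.15, and 82.6% and 70.3% of all called genes were then up, in place of 58.9%. At long-term exposure normexp with loess gave 72.5% in place of 59.9%. With the replicate block the counts were 16, 4, 4, 2, 5 and 11, where MAPKKK53 lost its called difference (adjusted p = 0.053). Deviations of same-numbered arrays had correlations of -0.24, 0.016 and -0.18, and those of other pairs ran from -0.075 to 0.22. Whether same-numbered arrays share a culture or batch cannot be settled by so few values. With the slide as a random block the counts were 16, 4, 4, 2, 6 and 11. Members with signals near background on some arrays, such as MAPKKK74, are limited by signal.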
